A study of Mus musculus with 12 samples.

Results

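The genes described here were those of the mouse cecum whose level was highest 12 h after cauterization. They were chosen by their measured levels: a gene had to be well above background on all 3 arrays at 12 h, with a 12 h mean at least 1.5 above the sham mean and at least 1 above both the 3 h and the 72 h means on the log2 scale. A level is log2 of the spot intensity minus the 75th percentile of its array, so that a difference of 1 is 2-fold, and each gene was read from its brightest probe. Of 27242 genes with a symbol on the array, 17592 were well above background on all 12 h arrays, and 163 met the rule. A further 30 entries met the same values but carried no symbol of their own and were left out.

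Burn injury of the bowel wall draws in blood leukocytes in an ordered sequence. Neutrophils come first, carrying granules filled with antimicrobial proteins, and they are called by chemokines such as those of the CXC and CC families. The epithelium that borders the lesion answers with secreted lectins and with keratins of wounded edges, while cells with a heavy secretory load raise chaperones and enzymes of amino acid synthesis. Transcripts of all these kinds can therefore be looked for among genes that pass through a maximum within the first days.

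The study followed adhesion formation after cecal surgery in wild-type C57BL/6 mice. Total RNA of the cecum was hybridised to 1-colour Agilent arrays with 56605 probes, in 4 groups of 3 arrays: a sham operated control taken at 0 h and cauterized cecum taken at 3, 12 and 72 h, the lesion having been made with bipolar forceps under pentobarbital. Age was not given in the sources used here. Because the sham group was taken at 0 h alone, cauterization cannot be told apart from laparotomy, anaesthesia or time of day. The labels call all mice male, yet Xist, the X inactivation transcript, was well above background on all 12 arrays, and the probes of the Y-linked genes Ddx3y and Eif2s3y were so on 0. Of 6 probes of the Y-linked gene Kdm5d, 1 was above background on all 12 arrays. Between 60.2% and 65.2% of probes were well above background per array, and no spot was saturated. The sham and 3 h arrays and 12 h replicates 1 and 2 lay on 1 slide, and 12 h replicate 3 and the 72 h arrays on another.

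Some members share sequence, which bears on how separately they were measured. The probes of Mrgpra2a (chr7:54681698-54681757 of mm9) and Mrgpra2b (chr7:54719177-54719236), a pair of Mas-related receptors, cover the same 55 bases, shifted against each other by 5.
Mrgpra2a: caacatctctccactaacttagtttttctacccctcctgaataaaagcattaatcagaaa
Mrgpra2b: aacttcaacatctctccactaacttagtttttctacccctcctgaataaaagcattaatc
These 2 members were therefore 1 measurement. The probes of Lce3b (chr3:92737872-92737931) and Lce3c (chr3:92749506-92749565), proteins of the cornified envelope, were alike at 54 of 60 bases, and capitals mark the bases that differ.
Lce3b: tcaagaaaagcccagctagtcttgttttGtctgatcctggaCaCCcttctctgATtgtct
Lce3c: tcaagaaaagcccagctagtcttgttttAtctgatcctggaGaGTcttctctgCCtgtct
Gsta2 and Gm10639 shared 53 of 60 bases and Mrgpra6 and Mrgpra7 shared 52, so that cross-hybridisation within these pairs was not tested. No other pair of members reached 45 identical bases. Below this limit, the probe of Lce3d also resembled those of Lce3b and Lce3c over a shorter overlap, shifted against them. Cross-hybridisation was not tested there either.

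Promoters of 123 members were found in the RefSeq promoter table (GRCm38.p6, 250 bases before to 50 after the start). The motif of NF-kB, read as GGGANTTTC or GGGANTTCC on either strand, stood in 9 of them (7.32%), against 2.81% of all 27025 promoters of the table. The TATA box, TATAAA, stood in 24.4% of the members' promoters against 14.2%, and the D-box TTATGTAA in 5 promoters, 4.07% against 0.955%. The promoters of Mrgpra2a and Mrgpra2b counted in both the D-box and the kappa B numbers. The motifs AP-1 (TGAGTCA or its reverse complement, 6.50% against 5.17%), C/EBP (TTGCGCAA or TTGCACAA, 1.63% against 1.19%), E-box (CACGTG, 4.88% against 7.24%), STAT (TTCCNGGAA, 0.813% against 1.15%), ROR (AGGTCA, 19.5% against 16%), glucocorticoid (ACANNNTGT, 9.76% against 6.90%) and heat shock (GAANNTTC, 4.88% against 7.95%) lay nearer to the share of all promoters, and CRE (TGACGTCA) was found in 0 of 123 against 1.88%. Matches are descriptions of letters, not of bound sites, and base composition differed little, with a median GC content of 51.0% in the members and 52.7% in all promoters. The 250 bases before the start are shown for 6 members that held a kappa B match and are described further on, with kappa B, TATA, E-box and D-box matches in capitals.
Cxcl2, chr5:90903649-90903898 (+): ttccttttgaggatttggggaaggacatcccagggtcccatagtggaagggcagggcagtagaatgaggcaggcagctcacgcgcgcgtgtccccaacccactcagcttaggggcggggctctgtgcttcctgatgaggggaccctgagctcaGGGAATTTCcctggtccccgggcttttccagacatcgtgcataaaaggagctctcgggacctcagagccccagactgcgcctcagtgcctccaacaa
Cxcl3, chr5:90785851-90786100 (+): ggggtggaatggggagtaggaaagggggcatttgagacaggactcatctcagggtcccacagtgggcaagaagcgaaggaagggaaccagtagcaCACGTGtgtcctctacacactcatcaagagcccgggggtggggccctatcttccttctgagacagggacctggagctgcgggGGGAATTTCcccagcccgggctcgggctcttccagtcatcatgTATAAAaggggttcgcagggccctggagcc
Gpr84, chr15:103310439-103310688 (-): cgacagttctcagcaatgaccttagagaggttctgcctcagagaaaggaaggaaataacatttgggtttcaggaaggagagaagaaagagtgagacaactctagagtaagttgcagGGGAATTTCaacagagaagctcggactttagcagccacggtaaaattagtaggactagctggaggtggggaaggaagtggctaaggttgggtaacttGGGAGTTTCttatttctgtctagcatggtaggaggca
Tlr2, chr3:83841609-83841858 (-): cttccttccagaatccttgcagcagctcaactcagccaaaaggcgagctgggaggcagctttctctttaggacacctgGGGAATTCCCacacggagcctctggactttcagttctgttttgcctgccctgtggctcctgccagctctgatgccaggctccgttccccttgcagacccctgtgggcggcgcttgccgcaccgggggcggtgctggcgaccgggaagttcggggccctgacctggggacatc
Reg3g, chr6:78468875-78469124 (-): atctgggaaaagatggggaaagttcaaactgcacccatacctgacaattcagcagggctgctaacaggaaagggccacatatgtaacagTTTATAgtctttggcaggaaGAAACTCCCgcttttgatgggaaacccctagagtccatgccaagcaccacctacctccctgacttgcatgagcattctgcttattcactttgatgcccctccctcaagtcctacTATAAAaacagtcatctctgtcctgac
Olfm4, chr14:80000052-80000301 (+): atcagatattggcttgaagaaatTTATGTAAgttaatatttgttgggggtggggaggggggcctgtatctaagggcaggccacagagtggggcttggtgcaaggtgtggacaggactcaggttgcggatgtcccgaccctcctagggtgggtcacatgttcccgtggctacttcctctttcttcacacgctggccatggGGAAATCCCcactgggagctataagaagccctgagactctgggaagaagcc
The promoter of Gpr84, a receptor for medium-chain fatty acids on myeloid cells, held a kappa B match at 2 places, and that of Cxcl3 held a kappa B match, an E-box and a TATA box.

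The members lay far apart in level and in size of change. Their 12 h means ran from -4.77 to 7.80, and the difference of the 12 h mean from the sham mean ran from 1.52 to 12.33 with a median of 3.45. The median differences were 1.61 from 3 h and 1.53 from 72 h. At 12 h all 3 arrays lay above the other 9 arrays in 133 of the 163 members and overlapped them in 30. The sizes of the rule favour such a separation, and it was not counted over all named genes. By limma, calling a gene where it changed more than 2-fold at an adjusted p below 0.05, 161 members were higher at 12 h than in sham (4.79% of all named genes were), 103 were higher than at 3 h (2.16% of all) and 113 higher than at 72 h (3.47% of all). These 3 differences made the choice and are given as a description. All 3 passed in 83 members.

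**Figure D1:**
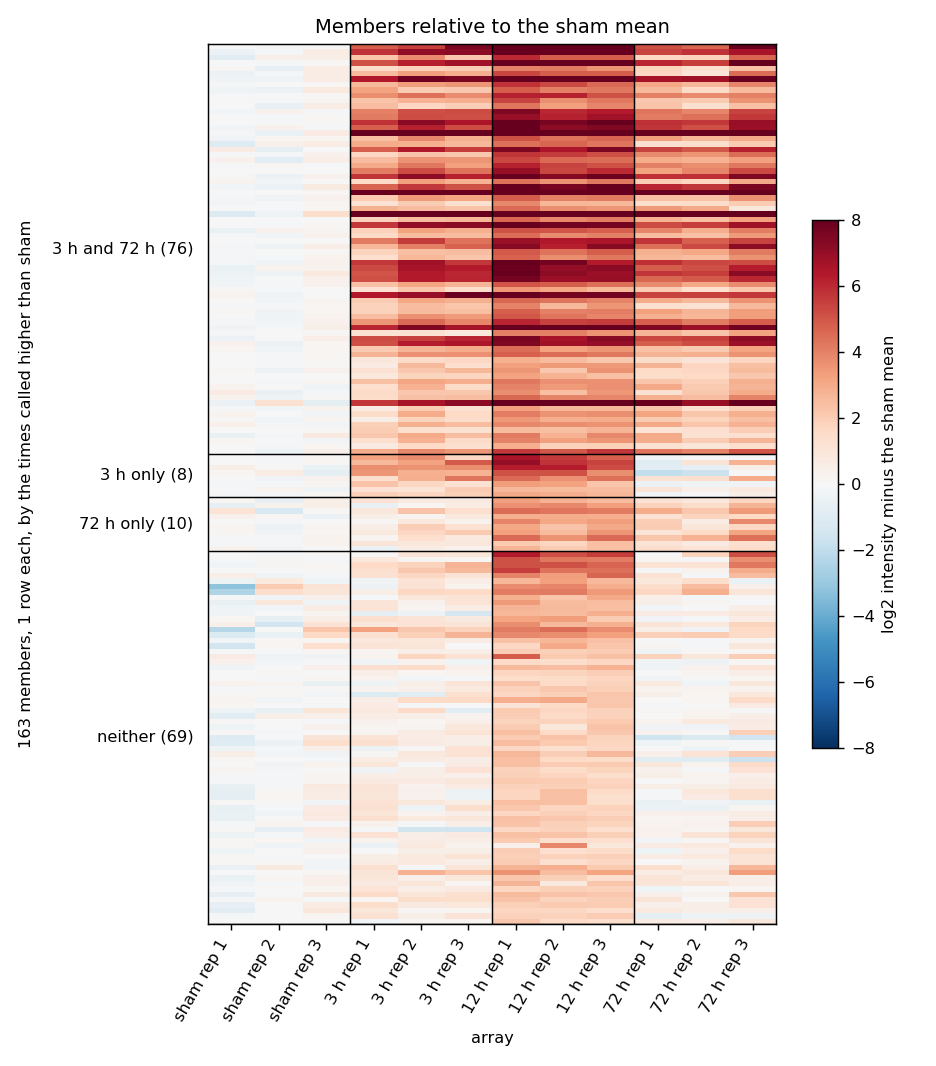
Each row is 1 of the 163 members and each column 1 of the 12 arrays. Colour gives log2 intensity minus the gene's sham mean, and values beyond 8 have the end colour. Rows are grouped by the times at which limma called them higher than sham, 76 at both 3 h and 72 h, 8 at 3 h only, 10 at 72 h only and 69 at neither. The 12 h columns are darker than the 3 h and 72 h columns, and 72 h replicate 3 is darker than the other 72 h columns.

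The limits of the rule cut through a continuous range. Just inside were Mefv, which encodes the inflammasome sensor pyrin and lay 1.008 above its 72 h mean, the adhesion receptor gene Adgre5 (1.009 above 72 h), Trim40 (1.010 above 3 h), the serine synthesis gene Psat1 (1.015 above 72 h) and Ttll10 (1.518 above sham). Just outside were Capns2 (0.998 above 72 h), the triglyceride synthesis gene Dgat2 (0.996 above 3 h), Il1b, the IL-1β gene, which lay 8.35 above sham but 0.995 above 72 h, Mybpc3 (0.994 above 72 h) and 4933432I03Rik (0.992 above 3 h).

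The rule was applied with 1 of the 12 h arrays left out, and the array left out was then read for the genes so chosen. Replicate 1 lay above the sham, 3 h and 72 h means in 119 of 122 such genes (97.5%) and met all 3 sizes in 110 (90.2%). Replicate 2 lay above all 3 means in 200 of 206 (97.1%) and met the sizes in 101 (49.0%), and replicate 3 did so in 193 of 213 (90.6%) and 99 (46.5%). Over all named genes above background on the remaining 12 h arrays, between 20.3% and 23.5% lay above all 3 means on the array left out and between 0.775% and 1.62% met all 3 sizes. The sham, 3 h and 72 h means that the left-out array was read against also took part in the choice. With an array of another group left out, it lay below the 12 h mean by the size set for its group in 83.3% to 95.7% of the genes chosen without it for the sham arrays, in 73.9% to 80.8% for the 3 h arrays and in 75%, 96.9% and 38.5% for 72 h replicates 1, 2 and 3. For 72 h replicate 3 this was 77 of 200 genes, and it lay below the 12 h mean at all in 181.

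**Figure D2:**
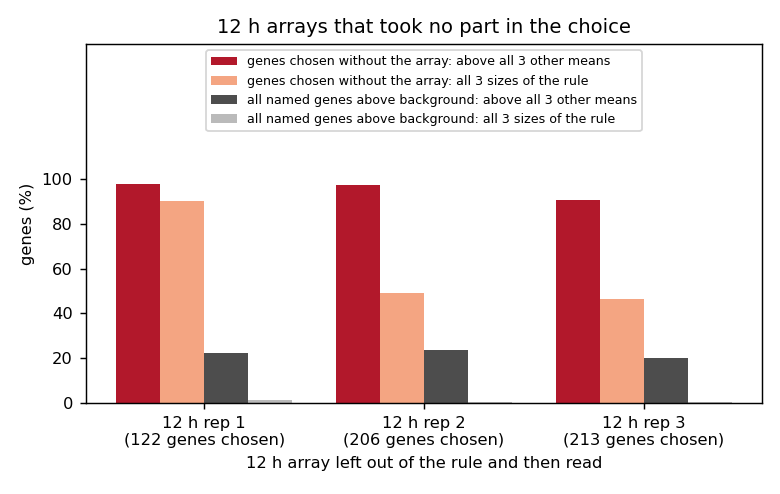
Bars give the percent of genes in which a 12 h array that was left out of the choice lay above the sham, 3 h and 72 h means, or met all 3 sizes of the rule, for the genes chosen without it and for all named genes above background. Among the chosen genes the bars for all 3 means are 97.5%, 97.1% and 90.6%, against 20.3% to 23.5% of all genes.

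Single arrays weighed on the choice. Replicate 1 was the highest 12 h array in 117 of the 163 members, and without it 122 genes met the rule, 117 of them members. Replicate 3 was the highest 72 h array in 128 members, with a median level over the members of 0.25 against -0.98 and -1.14 on 72 h replicates 1 and 2. Without it 200 genes met the rule, among them 159 members. The summed intensity of 35 neutrophil markers that are not members was also read, relative to the 75th percentile. It was 131 to 147 on the sham arrays, 398 to 655 at 3 h, 872 to 986 at 12 h and 475 to 1002 at 72 h. The median difference of these markers from sham was 3.61 at 12 h and 3.67 at 72 h. The part of neutrophil numbers in the members' levels was not tested. In whole tissue, more cells of a type and more RNA per cell cannot be told apart.

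Within slides the 12 h level could be set against each other group, on the arrays that also made the choice, so that the counts are a description. On the slide shared by sham, 3 h and 12 h replicates 1 and 2, 158 members lay at least 1.5 above sham and 158 lay at least 1 above 3 h. On the other slide 12 h replicate 3 lay above the 72 h mean in all 163 members and at least 1 above it in 131. Of all named genes above background, 4.79% lay at least 1 above it. All 3 sizes were met within slides by 142 genes, of which 121 were members. The other within-slide counts were not made over all named genes.

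Additional probes of the members gave a further reading on the same RNA. There were 64 for 50 members, of which 53 were well above background at 12 h. Their mean was highest at 12 h in 51 of 53 (96.2%), against 21.2% of such probes over all named genes, and 34 met the full rule (64.2% against 0.761%). A second probe of Tnf lay 3.15 above sham, 1.55 above 3 h and 1.5 above 72 h. For Lcn2 a second probe lay 9.92, 3.16 and 2.45 above them. A highest mean at 12 h could rest on a small difference. Other probes of Nup155 lay 0.024 and 0.015 above sham at 12 h, and a second probe of Nlrx1 lay 0.19 above it. Differences from sham at 12 h were -0.22 for another probe of Srgn and -0.47 for another of Gm14296.

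Before and after the maximum, 76 of the 163 members were called higher than sham at both 3 h and 72 h. A further 8 were called at 3 h only, 10 at 72 h only and 69 at neither. Genes called at both times were not counted over all named genes. A gene that was not called was not thereby near its sham level, and Ltf, called at neither time, lay at least 3.73-fold above sham at 3 h and 3.98-fold at 72 h. The comparisons of 3 h with sham and of 72 h with sham were not conditions of the rule, but all 4 group means entered it and both comparisons share the sham arrays. At 3 h, 84 members were called higher than sham (51.5%, against 3.81% of all named genes and 5.34% of those above background at 12 h). At 3 h 0 members were called lower by limma, with 2 at an unadjusted p under 0.05 and 1 without the fold threshold, while 4.27% of all named genes were lower. At 72 h, 86 members were called higher (52.8%, against 5.56% of all named genes and 7.32% of those above background at 12 h), and 2 lower (4.38% of all), the transcription factor gene Gata4 and BC048546. Gata4 was well above background on 0 arrays of either group and BC048546 on 1 sham array, so neither has a measured fold, and both calls were lost with slide as a block. With slide as a block, the count at 72 h fell to 46 and the count at 3 h was 83. Among the 99 members well above background on all 12 arrays, 52 were called higher at 3 h and 54 at 72 h, and the median share of the 12 h rise present was 49.2% at 3 h and 52.1% at 72 h on the log2 scale.

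**Figure D3:**
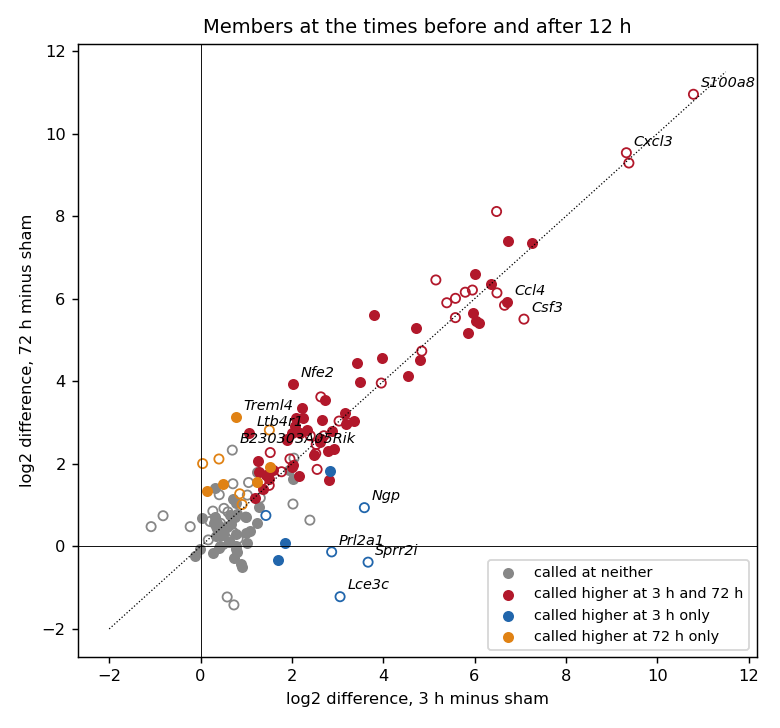
Each point is 1 member, with the log2 difference of the 3 h mean from sham on the horizontal axis and that of the 72 h mean on the vertical axis. Colours give the times at which limma called the gene higher, open points were not well above background on all 12 arrays, and the dotted line marks equal values. Points spread along the line from Nlrp9b and Ttll10 near 0 to S100a8 at 10.79 and 10.96, and Lce3c, Sprr2i, Prl2a1 and Ngp lie below it.

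The 3 h and 72 h levels differed from each other in 21 members. At 72 h 9 were higher than at 3 h (5.52% of members and 7.51% of all named genes) and 12 were lower (7.36% and 5.99% of all), shares near those of all genes. Higher at 72 h were Nfe2, a transcription factor of the blood lineages, Ltb4r1, the high-affinity leukotriene B4 receptor, and the myeloid receptor gene Treml4. So were Lrrc25, Fmnl1, Rnf39, 9830107B12Rik, Bhmt2 and its neighbour Dmgdh, a gene of choline and betaine breakdown. Lower were the cornified envelope genes Sprr2i, Lce3b, Lce3c and Lce3d, the keratin gene Krt6b, Plet1, Trim40, Prl2a1, Ngp, Csf3, Gata4 and BC048546. With slide as a block 2 higher (Nfe2 and Ltb4r1) and 3 lower (Sprr2i, Krt6b and Trim40) kept the call.

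Neutrophil genes were the list with the most members. Of 51 neutrophil markers measured, 16 were members (31.4%, against 0.598% of all named genes and 0.927% of those above background at 12 h). Of the 51, 37, 45 and 40 were called higher than sham at 3, 12 and 72 h, with 0 lower at each time by limma (3.81%, 4.79% and 5.56% of all named genes were higher). The median difference of the list was 2.99 after 3 h, 4.96 after 12 h and 3.99 after 72 h, where the medians over all named genes were 0.07, -0.01 and -0.13. These list values include the 16 members, which the rule chose for a 12 h maximum. Over the 35 markers that are not members the medians were 2.23, 3.61 and 3.67, with no maximum at 12 h. Of these 35, 23, 29 and 27 were called higher at the 3 times. Of the 16 members, 13 were called higher at both 3 h and 72 h, as were 76 of all 163 members. The granule proteins Ltf, Olfm4 and Ngp are given first. Ltf encodes lactoferrin, an iron-binding protein of the secondary granules. Its levels were -5.37, -5.05 and -5.06 on the sham arrays, -3.59, -3.30 and -2.44 after 3 h, -0.04, -0.05 and -0.49 after 12 h and -4.08, -4.07 and -0.91 after 72 h. The 12 h arrays lay above all others, and 72 h replicate 3 stood apart from its group. Ltf was below background on the sham arrays, so that 12 h exceeded sham at least 28.2-fold, while the fitted differences at 3 h (2.05, SE 0.71, limma adjusted p = 0.0738) and 72 h (2.14, SE 0.71, adjusted p = 0.0603) were not called.

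Ngp, the neutrophilic granule protein, was at -3.59, -2.97 and -1.31 after 3 h, 0.81, -0.44 and -0.83 after 12 h and -7.21, -5.19 and -3.43 after 72 h. It was above background on 0 sham arrays and 1 array at 72 h, and exceeded sham at least 29.2-fold and 72 h at least 21.2-fold at 12 h. Its 3 h level was at least 5.26-fold above sham (limma adjusted p = 0.0179), and the difference of 72 h from 3 h was -2.65 (SE 0.87, adjusted p = 0.0394). The 3 h call was lost without sham replicate 1 or 2 or 3 h replicate 3, with adjusted p of 0.0574, 0.0552 and 0.0627. Olfm4, a glycoprotein of a subset of neutrophils and of crypt cells, was above background on the 3 arrays at 12 h, at -1.79, -2.97 and -2.95, and on 1 other array, 72 h replicate 3, at -4.38. The 12 h level was at least 5.47-fold that of sham and at least 4.45-fold that of 3 h. Lcn2, which encodes the siderophore-binding lipocalin-2, had levels of -1.42, -1.60 and -1.32 in sham, 3.66, 4.78 and 5.26 after 3 h, 7.91, 7.13 and 7.41 after 12 h and 4.65, 4.08 and 6.69 after 72 h. It was called higher at 3 h (6.02, SE 0.60, limma adjusted p = 0.000204) and at 72 h (6.59, SE 0.60, adjusted p = 0.000106). Both flanks were well clear of sham, and the 12 h arrays lay above every other array.

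S100a8, which encodes a subunit of calprotectin, had the widest 12 h to sham difference of all members, 12.33 as fitted. Its 3 h arrays lay at 5.72, 6.68 and 6.40, its 12 h arrays at 7.97, 7.81 and 7.61 and its 72 h arrays at 6.20, 5.70 and 7.40. With 2 of 3 sham arrays above background, it exceeded sham at least 4527-fold at 12 h, and at least 1567-fold at 3 h (limma adjusted p = 9.23e-06). Its sham arrays lay far below all the others. Chil3, a chitinase-like protein of neutrophils and macrophages, lay at 2.62, 2.12 and 2.12 at 12 h and at 2.92 (3 h, SE 0.73, adjusted p = 0.0203) and 2.36 (72 h, SE 0.73, adjusted p = 0.046) above sham. The 3 h call on Chil3 was lost without sham replicate 1 or 2 or 3 h replicate 2 or 3 (adjusted p of 0.0540 to 0.0765). Its 72 h call was lost with slide as a block (adjusted p = 0.316) and on leaving out any array but 72 h replicates 2 and 3 (adjusted p of 0.0573 to 0.129), and was 0.0516 under quantile normalization. The leukolysin gene Mmp25 exceeded sham at least 12.1-fold at 12 h, 2.73-fold at 3 h and 2.80-fold at 72 h. Slfn4, with the neighbouring Slfn1 and Slfn3 on chromosome 11, was at 3.06, 2.21 and 2.40 at 12 h and 4.35 above sham.

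Prok2, a small chemoattractant made by neutrophils, was in none of the lists. It was below background on the sham arrays and at -2.27, -1.65 and 0.44 after 3 h, 2.70, 1.87 and 1.40 after 12 h and -2.03, -2.45 and 1.77 after 72 h. Prok2 exceeded sham at least 129-fold at 12 h, at least 14.5-fold at 3 h (limma adjusted p = 0.00332) and at least 17.3-fold at 72 h (adjusted p = 0.00259), but its 72 h replicate 3 lay within the 12 h range. With slide as a block the 72 h adjusted p of Prok2 was 0.0867. The Mas-related receptor genes Mrgpra2a and Mrgpra2b, Mrgpra5, Mrgpra6 and Mrgpra7 were all members, and all were called higher at 3 h and 72 h. Mrgpra2a lay 6.09 above sham at 3 h (SE 0.45, limma adjusted p = 3.9e-05), 7.38 above it after 12 h and 5.42 after 72 h (SE 0.45, adjusted p = 6.04e-05).

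Other cell types moved at these times as well. All 12 smooth muscle markers were called lower than sham at 12 h (5.57% of all named genes were), with summed intensities of 780 to 870 on the sham arrays, 442 to 529 at 3 h, 263 to 407 at 12 h and 292 to 379 at 72 h. Of 18 markers of macrophages and monocytes, 5 were called higher at 12 h and 13 at 72 h (4.79% and 5.56% of all named genes), with sums of 166 to 223 in sham, 269 to 438 at 3 h, 379 to 427 at 12 h and 473 to 513 at 72 h. Of 8 erythrocyte markers, 4 were called higher at 3 h (3.81% of all named genes) and 0 at 12 h and 72 h by limma, with sums of 8.64 to 19.2 in sham, 68.1 to 319 at 3 h, 30.4 to 50.1 at 12 h and 4.91 to 23.4 at 72 h. Their part in the members' levels was not tested. The markers of T and NK cells, B and plasma cells, dendritic cells, macrophages and epithelium included 0 members. Those of mesothelium, fibroblasts, endothelium, fat cells and erythrocytes also included 0. With 0.598% of all named genes being members, 0 in marker sets of these sizes was near that share. Hdc, which neutrophils also express, was the only member among 13 markers of mast cells and basophils.

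**Figure D4:**
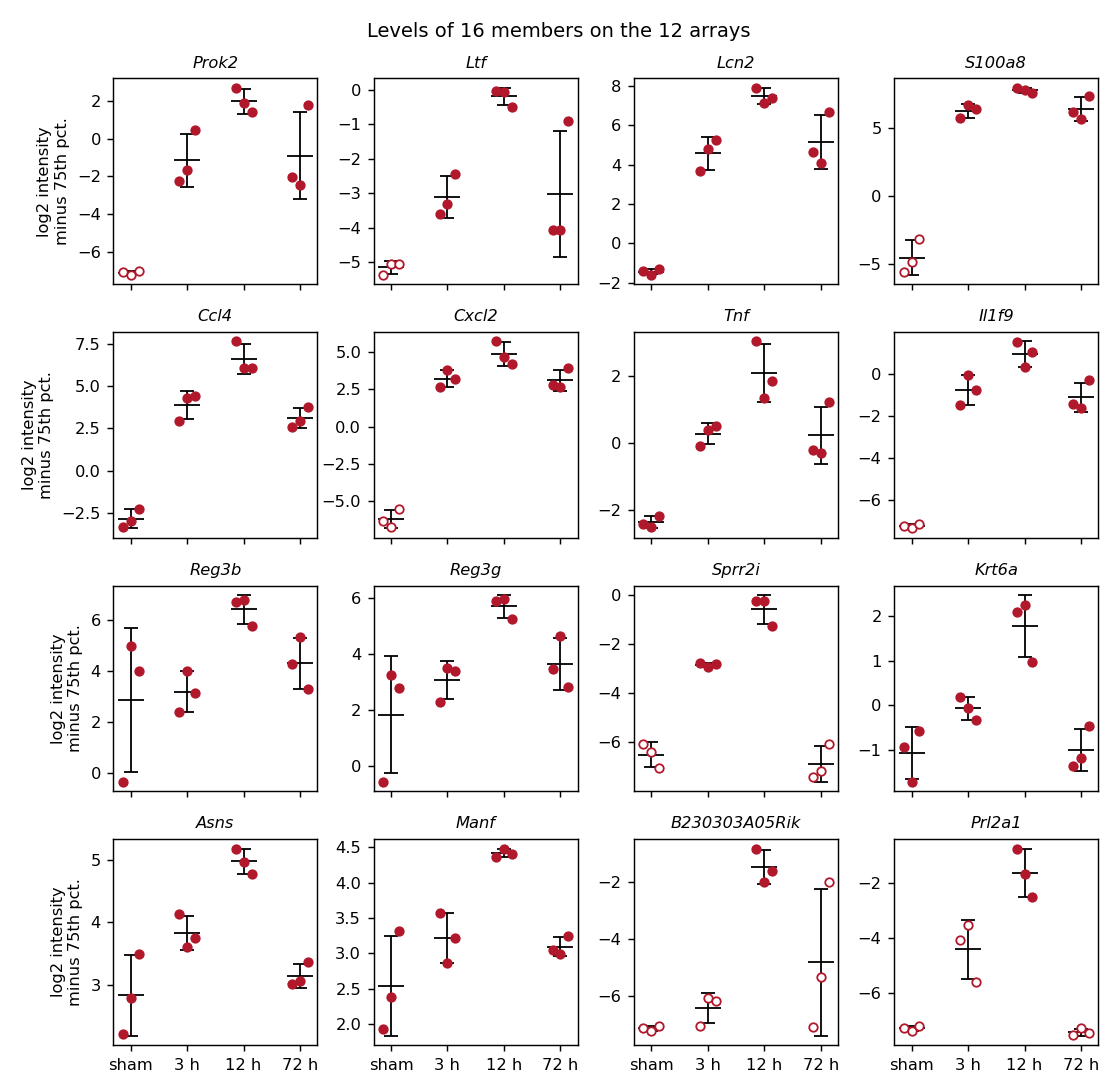
Levels of 16 members, as log2 intensity minus the array's 75th percentile, by group. Points are arrays, the horizontal tick is the group mean and bars are the SD over 3 arrays. Points are open where fewer than 3 arrays of the group were well above background. The 12 h mean is the highest in every panel, S100a8 and Lcn2 lie far above sham at 3 h and 72 h, and Reg3b, Krt6a, Asns and Manf were not called at either time.

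Of 22 CXC receptor ligands and receptors, 11, 10 and 9 were called higher than sham at 3, 12 and 72 h, and of 33 CC chemokines and receptors 13, 14 and 13 were (3.81%, 4.79% and 5.56% of all named genes). In the first list 2 were members, Cxcl2 and Cxcl3, which attract neutrophils through CXCR2. Cxcl2 was at 2.62, 3.76 and 3.18 after 3 h, 5.70, 4.66 and 4.15 after 12 h and 2.78, 2.61 and 3.89 after 72 h. On all sham arrays Cxcl2 was below background, and it exceeded them at least 927-fold at 12 h, at least 295-fold at 3 h (limma adjusted p = 8.38e-06) and at least 278-fold at 72 h (adjusted p = 6.92e-06). Cxcl3 exceeded sham at least 412-fold at 12 h, 129-fold at 3 h and 149-fold at 72 h. The promoters of both are among those printed, each with a kappa B match. Ccl3 and Ccl4, chemokines encoded side by side on chromosome 11, and Ccrl2, an atypical receptor that binds chemerin, were the members among 33 CC chemokines and receptors. Ccl4 lay at -3.32, -2.92 and -2.22 in sham, 2.96, 4.29 and 4.42 after 3 h, 7.62, 6.06 and 6.06 after 12 h and 2.61, 2.93 and 3.76 after 72 h. The 12 h arrays did not overlap any other group, and both flanks were called higher than sham (6.71 after 3 h, limma adjusted p = 6.07e-05; 5.92 after 72 h, adjusted p = 9.79e-05). Ccl3 lay 7.26, 9.41 and 7.35 above sham at the 3 times. Over the whole list of CC chemokines and receptors the median difference was 0.40 after 3 h, 0.30 after 12 h and 0.22 after 72 h.

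Tnf, the gene of the inflammatory cytokine TNF, had levels of -2.42, -2.53 and -2.18 in sham, -0.09, 0.38 and 0.52 after 3 h, 3.04, 1.35 and 1.86 after 12 h and -0.22, -0.30 and 1.21 after 72 h. It was called higher at 3 h (2.65, SE 0.47, limma adjusted p = 0.00381) and at 72 h (2.61, SE 0.47, adjusted p = 0.0039), and its highest value was on 12 h replicate 1. The 72 h call on Tnf was lost with slide as a block (adjusted p = 0.113). Of the IL-1 family, Il1f9 (IL-36γ), Il1a (IL-1α) and Il18rap, a chain of the IL-18 receptor, were members among 24 genes measured. Il1f9 exceeded sham at least 62.1-fold at 12 h, 18.9-fold at 3 h and 14.8-fold at 72 h, and Il1a at least 45.1-fold, 14.4-fold and 18.5-fold. Osm, the IL-6 family cytokine oncostatin M, lay 7.33 above sham at 12 h, with arrays at 4.77, 4.51 and 3.20 that overlapped 3 h replicate 2 at 3.62. Ebi3, a subunit shared by IL-27 and IL-35, was called higher at 72 h (1.93, SE 0.51, limma adjusted p = 0.0246) and not at 3 h (1.53, SE 0.51, adjusted p = 0.0648). The 72 h call on Ebi3 was lost without 72 h replicate 3 (adjusted p = 0.0545), without any of the sham arrays (adjusted p of 0.0511 to 0.0818) and with slide as a block (adjusted p = 0.44). Csf3 encodes G-CSF, the growth factor of granulocytes, and exceeded sham at least 75.6-fold at 12 h, at least 32.6-fold at 3 h and at least 10.9-fold at 72 h. Its 72 h arrays, at -1.65, -1.61 and -1.44, lay below its 3 h arrays at -0.66, -0.13 and 0.80.

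Myeloid receptors and sensors gave 12 members of 67 genes measured, against 0.598% of all named genes and 0.927% of those above background at 12 h. Of the 12, 10 were called higher at both 3 h and 72 h, as were 76 of all 163 members. Over the whole list the median difference from sham was larger at 72 h (2.44) than at 12 h (1.95) or 3 h (0.68). Hcar2, a receptor of butyrate and hydroxybutyrate, lay 4.81 above sham at 3 h (SE 0.49, limma adjusted p = 0.00022), 6.60 above it after 12 h and 4.51 after 72 h (SE 0.49, adjusted p = 0.000281). Nlrp3, the sensor of the inflammasome, was at -0.25, -1.46 and -1.46 at 12 h and 3.05 above sham. Tlr2, a receptor of bacterial lipoproteins, lay 1.69 above sham at 12 h and was not called at the other times (0.60 after 3 h, limma adjusted p = 0.137; 0.48 after 72 h, adjusted p = 0.239). Treml4 lay 4.22 above sham at 12 h and 3.12 at 72 h (SE 0.51, limma adjusted p = 0.00249), with 0.78 at 3 h (adjusted p = 0.30). It stood beside Trem3 and 2 transcripts with clone names, 9830107B12Rik and A530064D06Rik, between 48264211 and 48414705 of chromosome 17 (mm9), all of them members. The other members of the list were Ptafr, Lilrb4, Gpr84, Fpr1, Cd14, Clec5a and Mefv. Irg1 (Acod1), the enzyme that makes itaconate, lay 7.92 above sham at 12 h and 6.36 and 6.37 at 3 h and 72 h. Ltb4r1, of the prostaglandin and leukotriene list, rose by 1.07 at 3 h and by 2.75 at 72 h, and its 3 h call was lost when the percentile was taken over the bright probes alone (0.95).

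Of 52 genes of epithelial defence, 16, 21 and 14 were called higher than sham at 3, 12 and 72 h, against 3.81%, 4.79% and 5.56% of all named genes, and 6 were lower at 72 h (4.38% of all). The list held 6 members, Lcn2, Reg3a, Reg3b, Reg3g, Saa1 and Wfdc21, and only Lcn2 and Wfdc21 of these were called at 3 h or 72 h. The Reg3 genes encode C-type lectins that bind bacteria, and lie together between 78323323 and 78416479 of chromosome 6 (mm9). Reg3b had levels of -0.33, 4.95 and 3.98 in sham, 2.40, 4.0 and 3.13 after 3 h, 6.67, 6.76 and 5.75 after 12 h and 4.25, 5.31 and 3.30 after 72 h. The 12 h arrays lay above all others, but the sham arrays were far apart from each other, replicate 1 being the lowest, and Reg3b was 1 of 2 members that limma did not call at 12 h against sham. Reg3g followed the same course, with -0.56, 3.28 and 2.80 in sham and 5.91, 5.99 and 5.25 at 12 h. Reg3a was above background at 12 h alone, at -4.20, -3.55 and -4.26, and at least 2.02-fold above sham. Reg3b and Reg3g were not called against sham at 3 h (0.31 and 1.24, limma adjusted p = 0.873 and 0.342) or at 72 h (1.42 and 1.81, adjusted p = 0.435 and 0.189). Saa1, an acute phase apolipoprotein, was bright throughout, with 5.98, 5.66 and 5.73 in sham and 7.63, 7.24 and 7.57 at 12 h. Plet1, a surface protein of epithelial progenitors, rose at 3 h (2.80, SE 0.38, limma adjusted p = 0.00105) and was lower at 72 h than at 3 h, though still called above sham (1.61, SE 0.38, adjusted p = 0.0157).

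Of the members on the list of keratins and wound edge genes, 4 of 5 were called higher than sham at 3 h and 0 of 5 at 72 h. Members of this list of 63 genes were Sprr2i, Krt6a, Krt6b, Lce3b and Lce3c, and Lce3d, Epgn and Prss27 were members outside it. Over the list, 22, 21 and 9 genes were called higher at 3, 12 and 72 h, against 3.81%, 4.79% and 5.56% of all named genes. Sprr2i, a small proline-rich protein of the cornified envelope, was at -2.77, -2.92 and -2.81 at 3 h, -0.24, -0.25 and -1.26 at 12 h and below background on the sham and 72 h arrays. It exceeded sham at least 21.7-fold and 72 h at least 23.5-fold at 12 h, and sham at least 4.56-fold at 3 h (limma adjusted p = 0.000294). Krt6a, a keratin of activated keratinocytes, had levels of -0.94, -1.72 and -0.58 in sham, 0.18, -0.05 and -0.33 after 3 h, 2.11, 2.26 and 0.98 after 12 h and -1.36, -1.19 and -0.47 after 72 h. Krt6b was called higher at 3 h (1.84, SE 0.18, limma adjusted p = 0.000153) and lay 0.09 above sham at 72 h (SE 0.18, adjusted p = 0.741). Lce3b lay 2.93 above sham at 12 h, and its difference from sham at 72 h was -0.33 (SE 0.33, limma adjusted p = 0.531). Lce3c was above background on 1 sham array and 0 arrays at 72 h, and its 12 h level was at least 16.3-fold that of sham and 18.1-fold that of 72 h. Of 10 markers of skin and squamous epithelium, 0 were members and 2 were called higher at 12 h (limma, Krt14 and Lor), Dsg1a and Calm4 were above background on 0 arrays, and the summed intensity was 2.23 to 2.35 in sham, 3.03 to 3.25 at 3 h, 2.51 to 3.00 at 12 h and 3.36 to 5.70 at 72 h.

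Of 44 genes of the unfolded protein and integrated stress response, 5 were members, and 11, 15 and 5 were called higher at 3, 12 and 72 h (3.81%, 4.79% and 5.56% of all named genes), with median differences of 0.34, 0.87 and 0.29. The 5 members, chosen for a 12 h maximum, entered these counts and medians. Asns, asparagine synthetase, had levels of 2.22, 2.78 and 3.50 in sham, 4.13, 3.61 and 3.74 after 3 h, 5.18, 4.97 and 4.77 after 12 h and 3.01, 3.06 and 3.36 after 72 h. Its 3 h difference of 0.997 (limma adjusted p = 0.0351) missed only the fold threshold. Manf and Creld2, secreted proteins of the stressed endoplasmic reticulum, were at 4.36, 4.48 and 4.40 and at 5.93, 6.15 and 5.92 at 12 h, 1.87 and 1.73 above sham. At 3 h they lay 0.68 and 0.58 above sham (limma adjusted p = 0.145 and 0.197) and at 72 h 0.55 and 0.48 (adjusted p = 0.242 and 0.304). Their 12 h arrays were tightly grouped, whereas sham replicate 3 was the highest sham array for Asns, Manf, Creld2 and Psat1. Slc7a11, the cystine importer, was above background on 2 of 3 sham arrays, exceeded sham at least 25.3-fold at 12 h and was called higher at 3 h and 72 h, the latter not with slide as a block (adjusted p = 0.0561). Both calls on Slc7a11 were lost with the mean of all its probes (1.21 at 3 h, limma adjusted p = 0.158; 1.08 at 72 h, adjusted p = 0.212), and a second probe lay 1.5 above sham at 12 h with differences of -0.50 at 3 h and -0.23 at 72 h. Of 37 genes of hypoxia and glycolysis, the glucose transporter gene Slc2a3 (3.07 above sham at 12 h) and the oxygen sensor gene Egln3 (2.16) were members. Cd38, an NAD-consuming ectoenzyme, lay at 5.10, 4.97 and 4.84 at 12 h, 2.57 above sham, and at 0.63 and 0.11 above sham at 3 h and 72 h (limma adjusted p = 0.157 and 0.823).

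**Figure D5:**
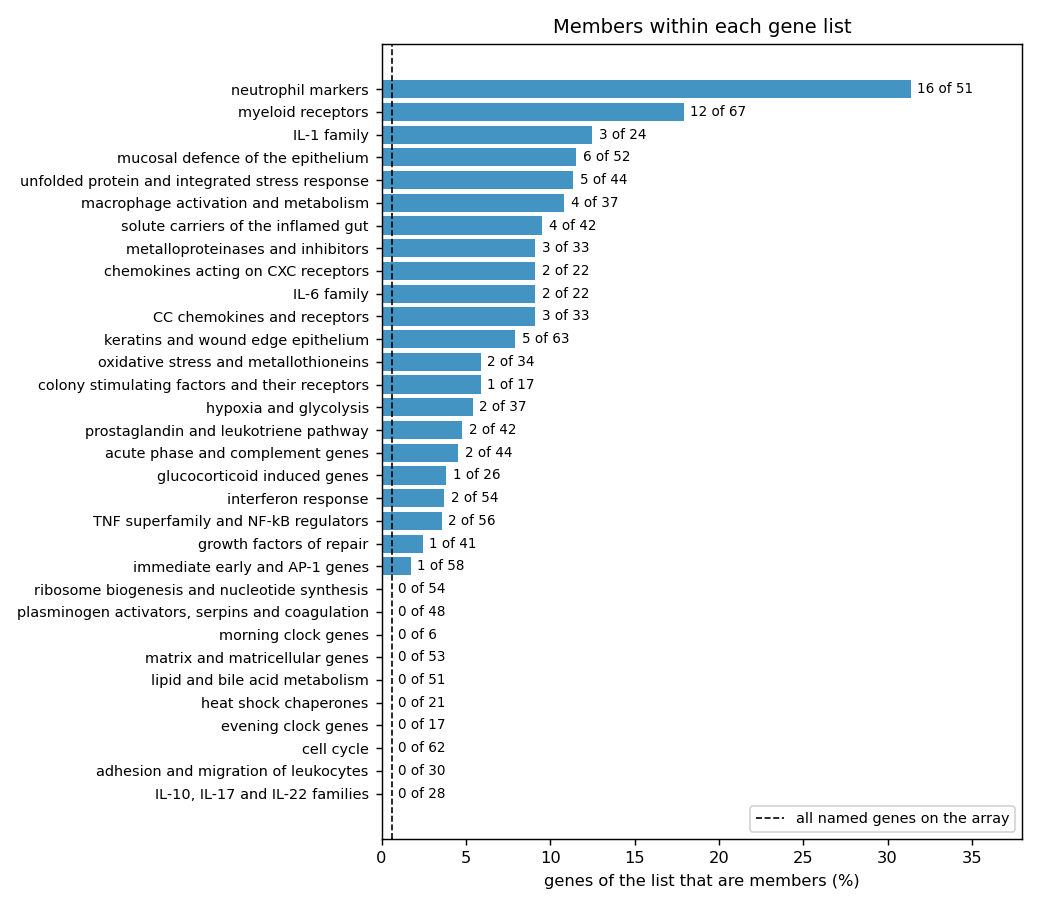
Bars give the percent of the measured genes of each list that are members, with the counts beside them, and the dashed line marks the 0.598% of all named genes. Among named genes above background at 12 h the share was 0.927%, which is not drawn. Neutrophil markers hold 16 members of 51 and myeloid receptors 12 of 67, while 10 lists hold 0.

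Members with the largest margin over the other 3 groups included transcripts known by a clone name alone. B230303A05Rik (chr13:15905435-15905494) and 4933412O06Rik (chr13:15873660-15873719), neighbours on chromosome 13 of mm9, led this order with 3.35 and 3.24. B230303A05Rik was at -0.81, -1.99 and -1.60 at 12 h and at -7.11, -5.34 and -2.0 at 72 h. 4933412O06Rik was at -2.07, -2.92 and -2.99 at 12 h and at -7.00, -7.27 and -3.43 at 72 h. Both were above background on 0 sham, 0 3 h and 1 72 h array, replicate 3, and exceeded sham at least 11.7-fold and 5.14-fold at 12 h. Prl2a1, of the prolactin family, was at -4.10, -3.54 and -5.63 at 3 h, -0.77, -1.67 and -2.52 at 12 h and below background on the sham and 72 h arrays. It exceeded 72 h at least 11.2-fold and sham at least 10.3-fold at 12 h. Gm26535, Gm36774 and 4930438A08Rik exceeded sham at least 4.24-fold, 1.60-fold and 15.5-fold at 12 h. Of the 154 members matched to a RefSeq gene, 138 were coding, 13 were long noncoding RNAs and 3 were transcribed pseudogenes.

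Many members lay near each other. Among 160 with coordinates, 57 fell into 22 groups in which the next member lay within 500000 bases, and 27 fell into 7 groups of 3 or more. The largest, between 82935656 and 83566087 of chromosome 11 (mm9), held Slfn1, Slfn4, Slfn3, Ccl3, Ccl4 and Wfdc21. Other groups held Lce3b, Lce3c and Lce3d on chromosome 3, Cxcl2, Cxcl3, Epgn and Afp on chromosome 5 and Saa1 with Mrgpra2a, Mrgpra2b and Mrgpra6 on chromosome 7. No such count was made for other genes, and members of 1 gene family that lie together can share probe sequence.

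Of 32 lists, 10 held 0 members. These were the evening (17 measured) and morning (6) clock genes, heat shock chaperones (21), cell cycle (62), ribosome biogenesis and nucleotide synthesis (54), matrix and matricellular genes (53), plasminogen activators, serpins and coagulation (48), leukocyte adhesion and migration (30), lipid and bile acid metabolism (51) and the IL-10, IL-17 and IL-22 families (28). With 0.598% of all named genes being members, 0 in lists of these sizes was near that share. Matrix genes were called higher at 72 h in 42 of 53 (5.56% of all named genes were) and at 12 h in 16 (4.79% of all). The remaining 95 members were in no list. Members of receptor, Schlafen and cornified envelope families, neighbours on a chromosome and genes called between 3 h and 72 h were named after their values were seen, apart from those with the largest margins.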

How the data were processed

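RNA from 12 mouse ceca was measured on Agilent SurePrint G3 arrays in a single colour. The authors deposited scanner output with background-corrected spot intensity values (Feature Extraction 11.5.1.1) and a table of log2 values, scaled by them to the 75th percentile and centred per probe. That table matched the levels used here (r = 0.999973 over 56605 probes). Control and outlier spots were left out, spots of a probe were averaged, and the level was the log2 intensity after subtracting that array's 75th percentile. The 12 arrays entered 1 fit of the 4 group means in limma 3.58.1 (R 4.3.3, Python 3.11.15). A call needed a fold change above 2 and a Benjamini-Hochberg adjusted p below 0.05 over 56605 probes. For a probe below background on 1 or more arrays of a group, the fold over that group is a bound, in which each such array took the higher of its lowest signal well above background and the probe's own. Coordinates are those of the array's mm9 annotation.

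Genes named were the 20 members with the largest margin of the 12 h mean over the other groups, up to 5 per gene list, the 5 nearest to each side of the limits, and markers a result turned on. Members and lists were chosen with earlier results of these data known. Each was grouped by its label. The number of arrays limits the precision, and p-values measure the spread between the 3 arrays of a group, described as biological triplicates. Alternatives were other normalizations and background corrections, other sizes and filters, the authors' table, the mean of all probes, slide or replicate number as a block, moderated variance with a trend and each array left out. A floor on dim probes, reading left-out arrays and keeping only members above background everywhere were added after the data were seen. The fitting step was tested on simulated data.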

Additional observations from a re-analysis of the deposited data

Results flagged for a closer look

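The differences of 9 named members from sham at 3 h and at 72 h were unlike by limma's test of 72 h against 3 h, adjusted over all probes. The cornified envelope and keratin genes among them were lower at 72 h than at 3 h. The log2 differences were -4.05 (SE 0.40, adjusted p = 0.000126) for Sprr2i, -4.27 (SE 0.57, adjusted p = 0.00056) for Lce3c, -2.03 (SE 0.33, adjusted p = 0.00156) for Lce3b and -1.75 (SE 0.18, adjusted p = 0.000141) for Krt6b. The 10 markers of skin and squamous epithelium did not fall as a set. Their summed intensity was 3.03 to 3.25 at 3 h and 3.36 to 5.70 at 72 h. Of these markers, 2 were called higher and 1 lower at 72 h than at 3 h (7.51% and 5.99% of all named genes). Lower too were the ubiquitin ligase gene Trim40 with -1.40 (SE 0.18, adjusted p = 0.000457), the prolactin family gene Prl2a1 with -3.00 (SE 0.51, adjusted p = 0.00196), the granule protein gene Ngp with -2.65 (SE 0.87, adjusted p = 0.0394) and the G-CSF gene Csf3 with -1.57 (SE 0.48, adjusted p = 0.0312). The leukotriene B4 receptor gene Ltb4r1 was higher at 72 h, with 1.68 (SE 0.23, adjusted p = 0.000598). At 72 h Sprr2i, Lce3c and Prl2a1 were below background on all arrays and Ngp on all but replicate 3, so that their differences are fitted values and no measured folds. With slide as a block, Sprr2i, Krt6b, Trim40 and Ltb4r1 kept the call.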

How the results depend on the processing

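The number of genes that met the rule was 163. It was 151 under quantile normalization or with a percentile of the bright probes alone and 163 in the authors' table. With the floor on dim probes it was 149, all of them members, and within slides 142, of which 121 were members. It was 86 with normexp background correction (85 of them members), 52 with sizes of 2 and 1.5, 99 with a background filter on all 12 arrays, 251 with no filter on background and 83 with all 3 differences past the test. Leaving out 1 array gave 122 to 213 genes. Members called higher than sham at 3 h numbered 84, 75 to 91 with an array left out, and 52 among members above background on all 12 arrays. Members called lower at 3 h numbered 0, 0 to 1 with an array left out, and 1 without the fold threshold. Members called higher at 72 h numbered 86, 74 to 90 with an array left out, 46 with slide as a block and 54 among members above background everywhere. Members called lower at 72 h numbered 2, 1 to 2 with an array left out, 1 under quantile normalization or the mean of all probes, and 0 with normexp, the floor, slide as a block or members above background everywhere. Against 3 h, 9 were higher at 72 h, 6 to 16 with an array left out (15 without 3 h replicate 2, 16 without 72 h replicate 2) and 2 with slide as a block. Lower were 12, 9 to 15 with an array left out, 3 with normexp or slide as a block and 5 among members above background everywhere. The cause was not tested.

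Replicate numbers did not pair the arrays, since correlations between same-numbered arrays ran from -0.162 to 0.0866 and 3 of 12 arrays were closest to their own number. With the replicate block 82 members were higher at 3 h, 84 higher and 1 lower at 72 h. Of 6695 alternative values for 65 named members, 6464 stayed, 111 moved, 30 passed the test newly, 90 no longer passed and 0 reversed. With normexp the 3 h calls on Prok2, Prl2a1, Ngp, Sprr2i, Mmp25, Chil3, Nlrp3, Ltb4r1, Lce3b, Lce3c, Krt6b and Il18rap and the 72 h calls on Prok2, Mmp25, Nlrp3, Il18rap and Slc7a11 were among those lost. Signal over background limits the dim members, and 99 of 163 were above background on all arrays.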
